A study of Homo sapiens with 12 samples.

Results

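The genes described here encode the machinery that cuts, exports and uses microRNAs: DROSHA, DGCR8, XPO5, DICER1, TARBP2, PRKRA and the 4 Argonautes AGO1, AGO2, AGO3 and AGO4. They were chosen by name, as the entries of the deposited table whose symbol is one of these 10. All 10 were found, each in an entry of its own, out of 25787 entries with a symbol, and all 10 had the mean of at least 10 normalised reads that was required for testing, as did 14225 named entries. Expression was measured by RNA sequencing in TC-71, a human cell line of Ewing sarcoma, a tumour driven by the fusion of EWSR1 with FLI1 or a related gene. There were 12 libraries in 4 groups of 3 biological replicates, all from this 1 cell line, so the spread is that between cultures. The first pair of groups was unmodified TC-71 cells kept for 16 h with DMSO, the solvent, or with YK-4-279, a small molecule developed against the contact of the fusion protein with the RNA helicase DHX9 and labelled at 2 mM. The second pair was TC-71 cells transfected by lipofection with a scrambled control or against DHX9 (siDHX9), and collected 48 h after transfection. The labels' protocols name siRNAs while the design text names shRNAs, and no sequence of either is given there.

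A microRNA is made in steps. A long primary transcript folds into a hairpin, which the nuclear Microprocessor, the nuclease DROSHA with its RNA-binding partner DGCR8, cuts out. Exportin-5, the product of XPO5, carries the hairpin to the cytoplasm, where DICER1 with its double-stranded RNA-binding partners TARBP2 (TRBP) and PRKRA (PACT) trims it to a short duplex. One strand is then loaded into an Argonaute protein, which finds messenger RNAs through the microRNA's seed, bases 2 to 8. DHX9 has been found with DICER1, TARBP2 and Argonaute proteins and can act in loading of small RNAs, which is why these genes are of interest beside a drug and a knockdown aimed at DHX9.

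Among all the genes that carry microRNA hairpins inside their transcripts, 3 long noncoding hosts are shown, because their own levels changed with the drug or the knockdown. H19, a further such host that was called with the knockdown, had few reads and is described below without sequences. DGCR8 is shown because its messenger RNA carries hairpins itself. The mature sequences are from RefSeq (GRCh38.p14), 5′ to 3′, with the seed in capitals. The libraries measured long transcripts, so a value for a host gene is no measurement of these mature microRNAs. MIR17HG on chromosome 13 carries the 6 hairpins of the miR-17-92 cluster, whose main products fall into 4 seeds: miR-17-5p and miR-20a-5p share one, miR-19a-3p and miR-19b-3p share another, and miR-18a-5p and miR-92a-3p each have their own.
miR-17-5p: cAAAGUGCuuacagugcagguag
miR-20a-5p: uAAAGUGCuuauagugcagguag
miR-18a-5p: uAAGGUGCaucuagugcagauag
miR-19a-3p: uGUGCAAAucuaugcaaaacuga
miR-19b-3p: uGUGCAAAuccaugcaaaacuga
miR-92a-3p: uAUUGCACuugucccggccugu

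DNM3OS on chromosome 1, an antisense transcript of DNM3, carries miR-214 and miR-199a-2, whose products have unlike seeds.
miR-214-3p: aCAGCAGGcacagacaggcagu
miR-199a-5p: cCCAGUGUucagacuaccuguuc
miR-199a-3p: aCAGUAGUcugcacauugguua

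MIRLET7BHG on chromosome 22 carries let-7a-3 and let-7b, members of the let-7 family with 1 shared seed.
let-7a-5p: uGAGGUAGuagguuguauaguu
let-7b-5p: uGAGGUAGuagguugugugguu

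The DGCR8 transcript, also on chromosome 22, holds the hairpins of miR-3618 and miR-1306, which the Microprocessor itself can cut.
miR-3618: uGUCUACAuuaaugaaaagagc
miR-1306-5p: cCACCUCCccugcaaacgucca

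Library depth was 38.6 to 65.5 in units of 1e6 reads, and each member was counted with at least 92 reads in every library. The entry that joins DHX9 with its neighbour NPL was at 32689 ± 2132 normalised reads in scrambled and 20608 ± 1098 in siDHX9 libraries (SD, n = 3 here and below), a change of −36.9%, which checks the knockdown label. Ewing sarcoma markers were present, 8 of 8, with means over the 12 libraries from 1239 (NKX2-2) to 28091 (CD99). Of 10 markers of blood, epithelial, endothelial, muscle and liver cells, 8 had means under 10 and 3 of these were at 0. The other 2 were EPCAM, at a mean of 10.2, and CD68, whose entry is joined with the abundant EIF4A1. Ribosomal RNA made up 5.19 ± 0.244% of reads in DMSO, 8.79 ± 1.07% with YK-4-279, 4.09 ± 0.963% in scrambled and 2.71 ± 0.915% in siDHX9 libraries, and its part in the results was not tested. The balance between long and short transcripts also differed among libraries, and its values are given beside the results it moves with.

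To compare levels between genes, normalised reads were divided by the length of the transcript. On that scale the Microprocessor, export and Dicer-partner genes were far more abundant than DICER1 and the Argonautes. TARBP2 was highest, with 1358 normalised reads per kb of transcript as the mean over 12 libraries, followed by XPO5 with 1125, PRKRA with 789 and DROSHA with 654. DGCR8 was at 183 per kb. AGO2, AGO3, AGO4, AGO1 and DICER1 lay between 29.3 and 16.0 per kb. Among 12149 genes with a length, TARBP2 stood at the 82.1 percentile and DICER1 at the 12.2 percentile. Of the neighbours in this order, AGO2 with AGO3 (25.6 ± 2.16 against 25.1 ± 0.759 per kb in DMSO libraries) and AGO4 with AGO1 (16.2 ± 1.99 against 14.4 ± 1.3) lay within their spread. The order also differed between groups. In DMSO libraries DICER1 (17.0 ± 1.62) stood above AGO4 and AGO1, and in scrambled libraries XPO5 (1323 ± 61.5) stood above TARBP2 (1204 ± 171). The Argonaute messenger RNAs have very long untranslated regions, and per kb of coding sequence AGO3 (208) came before AGO2 (166) and AGO1 (92.4) before AGO4 (52.4), while the other places in the order stayed as they were. The length of the transcript actually used in TC-71 was not measured, so these orders hold for the annotated transcripts only.

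**Figure D1:**
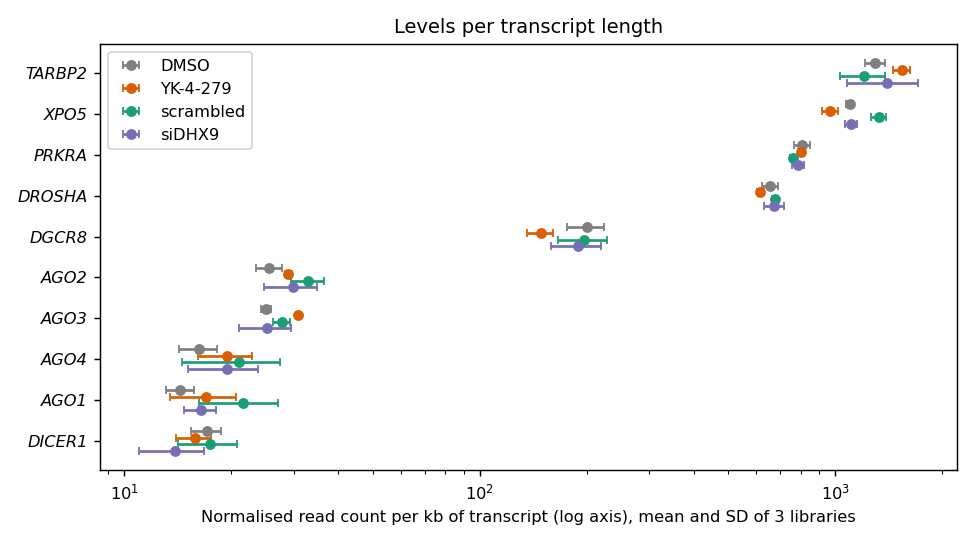
Normalised read count per kb of annotated transcript (x, log axis) for each of the 10 genes (y), as mean and SD of 3 libraries in each of 4 groups (colours). TARBP2, XPO5, PRKRA and DROSHA lie at 615 or more per kb, and DICER1 and the 4 Argonautes lie at 32.9 or less in the group means.

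In the comparison of YK-4-279 with DMSO, none of the 10 genes passed an adjusted p of 0.05 in limma (two-sided, with Benjamini-Hochberg adjustment over all 14225 named entries), where 13.8% of all entries did. At an unadjusted p under 0.05 there were 3, namely DGCR8, XPO5 and AGO3, and the share of all entries at that level was not counted. Drug and vehicle libraries did not overlap for 5 of the 10, against 43.5% of all entries. DGCR8 and XPO5 were the 2 that were lower (20.4% of all entries) and AGO2, AGO3 and TARBP2 the 3 that were higher (23.2% of all entries). The median change of the 10 was 0.09 on the log2 scale, beside 0.02 over all entries. In the comparison of siDHX9 with scrambled libraries, 1 of the 10 was called, XPO5, which was lower, where 16.7% of all entries were called and 7.97% were called lower. XPO5 was also the 1 gene whose groups did not overlap (29.3% of all entries). The median of the 10 was −0.12, beside −0.00 over all entries. The difference between the drug effect and the knockdown effect was tested directly and called for none of the 10, where 9.69% of all entries were called. For that difference 2 had an unadjusted p under 0.05, AGO1 and AGO3, and here too the share of all entries was not counted. The drug and knockdown comparisons have no library in common, but each shares its control group with the comparison of the controls. All were fitted with the same estimate of the spread, so their values are given side by side and not as independent evidence.

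**Figure D2:**
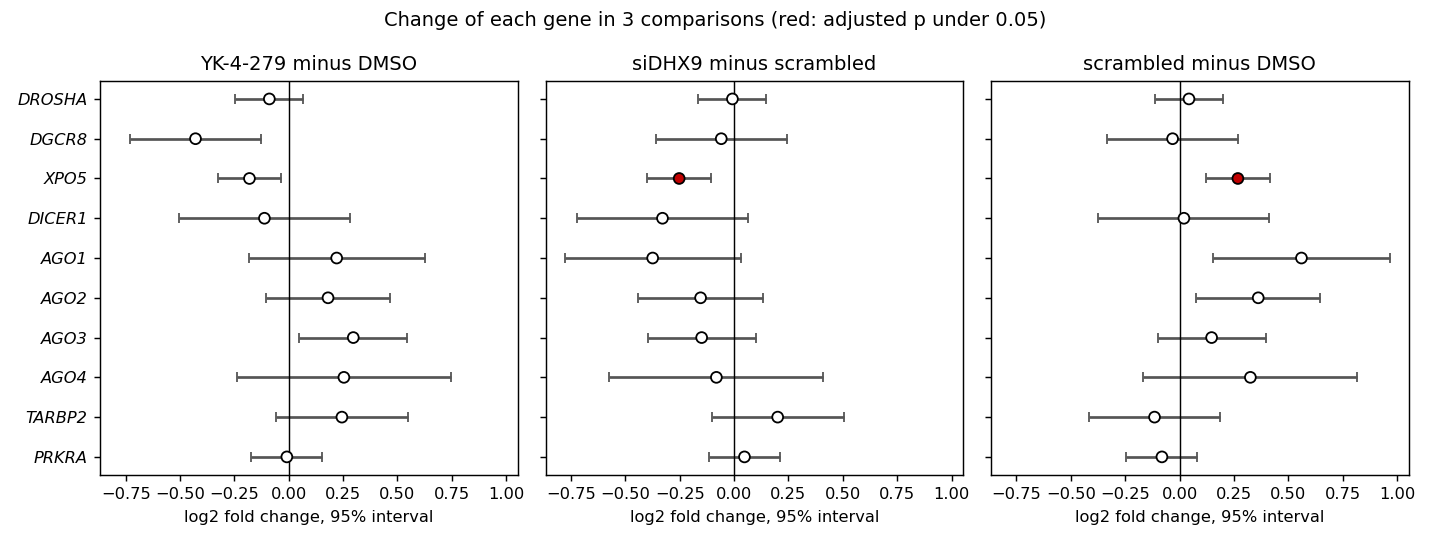
Change of each gene (y) on the log2 scale (x) with its 95% interval, in the drug comparison, the knockdown comparison and the comparison of both controls. Filled red points passed an adjusted p of 0.05, which XPO5 did at −0.25 in siDHX9 minus scrambled and at 0.27 in scrambled minus DMSO.

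DROSHA (GSHG0024697, hg19 chromosome 5, 31374902 to 31532282), the nuclease of the Microprocessor, was among the steadiest of the 10. Its normalised reads were 3535, 3628 and 3267 in DMSO, 3238, 3204 and 3352 with YK-4-279, 3514, 3594 and 3631 in scrambled and 3300.25, 3687 and 3706 in siDHX9 libraries. The highest of the 12 values was 1.16 times the lowest, and the groups overlapped in both comparisons. The change was −0.09 ± 0.07 (log2 ± SE) with the drug, with a 95% interval of −0.25 to 0.07, and −0.01 ± 0.07 with the knockdown, with an interval of −0.16 to 0.15. DROSHA overlaps C5orf22 over 6846 bases, but that gene's mean of 172 normalised reads is small beside the 3471 of DROSHA.

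In bulk RNA, fewer cells of a kind and less RNA per cell cannot be told apart. DGCR8 (GSHG0019836, chromosome 22, 20067755 to 20099398), the double-stranded RNA-binding partner that holds the hairpin for DROSHA, showed the lowest values of the series with YK-4-279. It was at 999.7, 924 and 787 normalised reads in DMSO and at 733, 633 and 641 with the drug. All 3 drug libraries lay below all 3 vehicle libraries, and also below every transfected library, where values were 758, 1036 and 866 in scrambled and 785, 1009 and 759 in siDHX9. The change with the drug was −25.7% (log2 −0.43 ± 0.14, 95% interval −0.73 to −0.13), with an adjusted p of 0.0579 that missed the threshold. It was under the threshold when values were scaled by TMM (0.0472), in edgeR (0.0454) and DESeq2 (0.0198) on whole reads, in a fit to the drug and vehicle libraries alone (0.00711), and in the fits without scrambled 2 (0.0404), siDHX9 2 (0.0235) or siDHX9 3 (0.0443). Those 3 libraries are outside the drug comparison and enter only its shared spread. The adjusted p stayed over the threshold with quantile normalisation (0.0624), no minimum mean (0.0745), a minimum mean of 50 (0.0545) and a block for the replicate number (0.0589). In the other fits without 1 library it was over the threshold too, at up to 0.203. As a percentage of the normalised reads of DROSHA, not divided by length, DGCR8 stood at 20.5 ± 1.87% in the drug libraries against 25.9 ± 2.13% in DMSO, and the libraries did not overlap (19.1 to 22.6% against 24.1 to 28.3%). With the knockdown the change was −0.06 ± 0.14, with an interval of −0.36 to 0.24, and the libraries overlapped. The difference between both effects, −0.37 ± 0.20, had an adjusted p of 0.258.

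XPO5 (GSHG0026635, chromosome 6, 43490068 to 43543812), the exporter of hairpin precursors, was the 1 member called in any comparison. Its normalised reads were 6847, 7470.06 and 6970.02 in scrambled and 5755, 5896 and 6210.13 in siDHX9 libraries. Every siDHX9 library lay below every scrambled library, a change of −16.1% (log2 −0.25 ± 0.07, adjusted p = 0.0246). The DMSO libraries, at 5966, 5974 and 5722, overlapped the siDHX9 values, and the YK-4-279 libraries were lowest, at 5061, 5018 and 5513. The drug libraries lay below all vehicle libraries (log2 −0.18 ± 0.07, 95% interval −0.33 to −0.03, adjusted p = 0.0942), and the call was made with TMM (0.0464), edgeR (0.0492), DESeq2 (0.0315) and the 6 libraries of the comparison (0.0216). It was not made with quantile normalisation (0.0804), no minimum mean (0.104) or a block for the replicate number (0.13).

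The control groups themselves differed in XPO5. Scrambled minus DMSO was 0.27 ± 0.07 (adjusted p = 0.0157), without overlap, where 18.9% of all entries were called, 9.7% of all entries as higher, and 40.8% did not overlap. XPO5 was the 1 member called between the controls, and 4 of the 10 did not overlap, AGO1, AGO2 and AGO3 being the others. That comparison joins transfection, time in culture and the drug's solvent, which cannot be told apart. The knockdown and control comparisons of XPO5 share the scrambled libraries, and both calls ended without scrambled 2, at an adjusted p of 0.0773 for the knockdown and 0.0604 between the controls. The knockdown call also ended without siDHX9 1 (0.0832) and with only its 6 libraries (0.15), and the control call without DMSO 3 (0.0686). XPO5 overlaps POLR1C, a subunit of RNA polymerases I and III, over 7047 bases, and POLR1C moved the other way: siDHX9 minus scrambled was 0.37 ± 0.08 (adjusted p = 0.00845) and scrambled minus DMSO was −0.34 ± 0.08 (adjusted p = 0.0111). The knockdown call of POLR1C ended with only its 6 libraries (0.0931) and the control call without scrambled 1 (0.054). The sources used here do not say whether counting kept the strands apart.

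**Figure D3:**
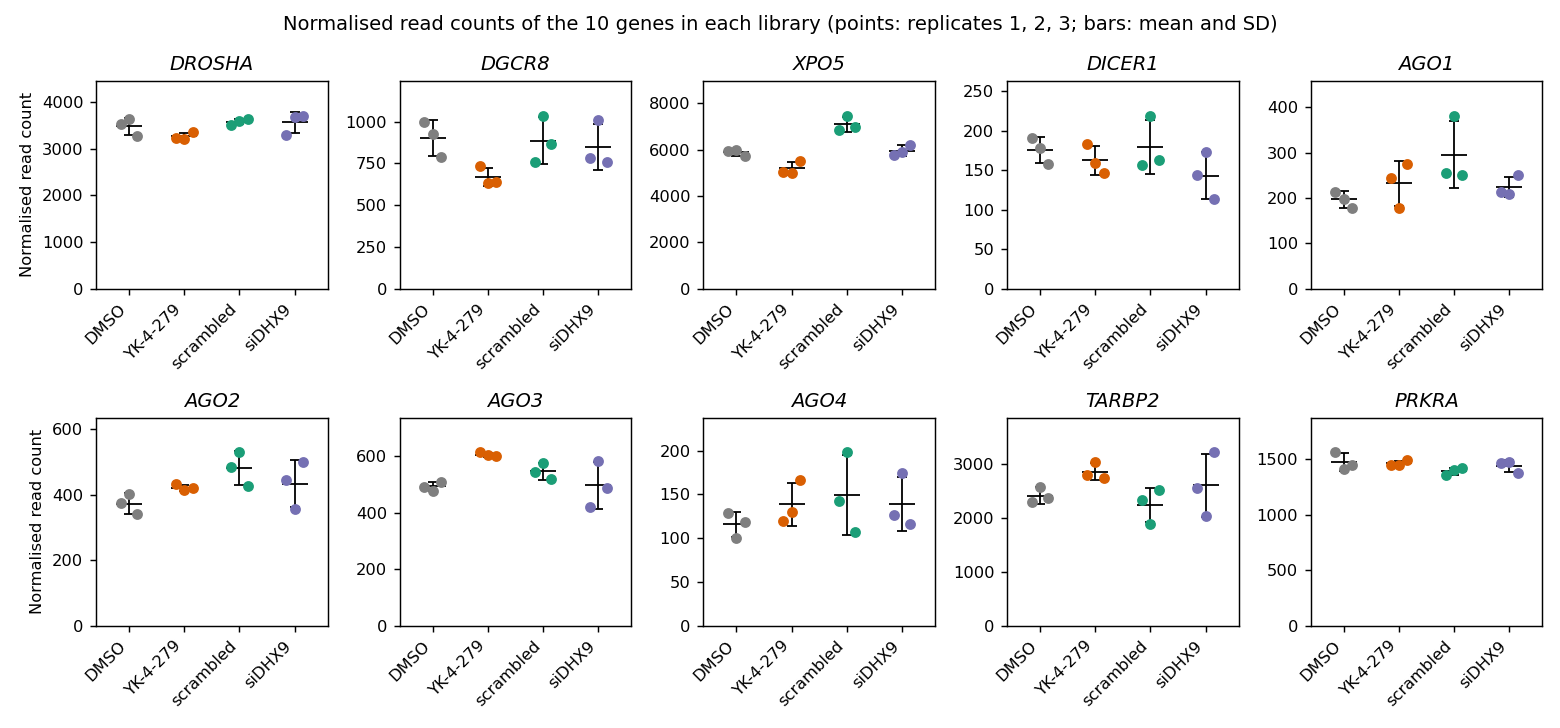
Normalised read count (y, from 0) of each of the 10 genes in the 3 libraries of each group (x), with mean and SD as bars. XPO5 is highest in the scrambled group and DGCR8 lowest in the YK-4-279 group, while DROSHA and PRKRA stay level.

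Long transcripts as a class were, like XPO5, highest in the scrambled group and lowest with YK-4-279. For each library, the median deviation of 2846 genes with a transcript of at least 5 kb from their mean over the 12 libraries was set against that of 3054 genes under 2 kb. On the log2 scale this balance of long against short averaged 0.01 in DMSO, −0.11 with YK-4-279, 0.19 in scrambled and −0.10 in siDHX9 libraries. XPO5 averaged 5887, 5197, 7096 and 5954 normalised reads in the same groups, so it did not follow the balance between DMSO and siDHX9. Within groups the balance ranged as widely, from 0.08 to 0.32 in scrambled and from −0.31 to 0.11 in siDHX9 libraries. The annotated XPO5 transcript has 5.36 kb. When each library's trend of change with transcript length was taken out before the fit, an alternative chosen after the data were seen, XPO5 was −0.11 in siDHX9 minus scrambled (adjusted p = 0.306) and 0.14 in scrambled minus DMSO (adjusted p = 0.183), so neither call remained. DGCR8 with the drug was −0.42 after the same step (adjusted p = 0.0257). Scrambled 2, the library with the highest balance at 0.32, held the highest of the 12 values for 6 of the 10 genes, DGCR8, XPO5, DICER1, AGO1, AGO2 and AGO4, and the lowest for TARBP2, which has a short transcript of 1.87 kb. siDHX9 3, with the lowest balance at −0.31, held the highest values of TARBP2 and DROSHA and the lowest of DICER1. DROSHA, with a transcript of 5.305 kb, went against the length order there, and so did XPO5 within the siDHX9 group, being highest in siDHX9 3. Whether this balance sets the values of these genes was not tested.

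**Figure D4:**
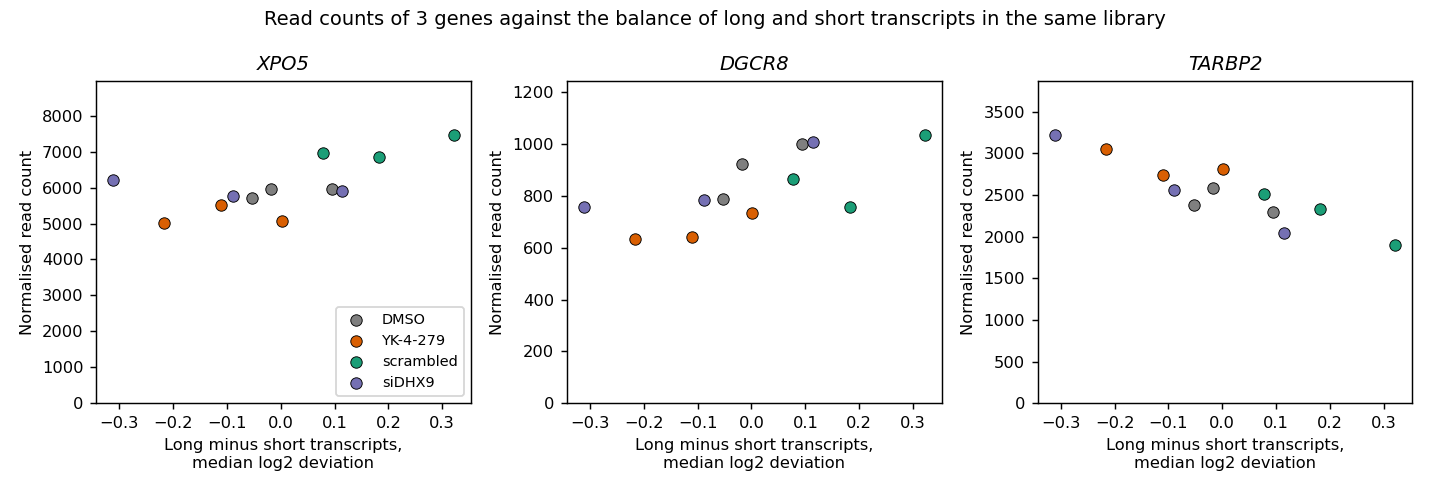
Normalised read count (y, from 0) of XPO5, DGCR8 and TARBP2 in each library against the balance of long and short transcripts in that library (x, median log2 deviation of long minus short transcripts). Scrambled 2 at 0.32 has the highest XPO5 and DGCR8 and the lowest TARBP2, and the drug libraries lie low in DGCR8 between −0.22 and 0.00158.

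DICER1 (GSHG0009596, chromosome 14, 95552565 to 95624347), the cytoplasmic nuclease, was low, with 105 to 256 reads per library. It was at 191, 179 and 158 normalised reads in DMSO, 183, 159.9 and 146 with YK-4-279, 157, 219 and 164 in scrambled and 144, 173 and 113 in siDHX9 libraries. The groups overlapped in both comparisons, with changes of −0.11 ± 0.18 for the drug (95% interval −0.51 to 0.28) and −0.33 ± 0.18 for the knockdown (−0.72 to 0.06, adjusted p = 0.224). DICER1-AS1, an antisense neighbour that overlaps DICER1 over 323 bases, did change: it was at 176 in scrambled against 88.5 in DMSO (log2 0.98 ± 0.20, adjusted p = 0.00482) and 111 in siDHX9 libraries (log2 −0.67 ± 0.20 against scrambled, adjusted p = 0.0363). The knockdown call of DICER1-AS1 ended with only the 6 libraries of the comparison (0.108), with no minimum mean (0.0641) and without YK-4-279 3, scrambled 1, scrambled 3 or siDHX9 3 (0.0511 to 0.142).

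TARBP2 (GSHG0006697, chromosome 12, 53894705 to 53900213) and PRKRA (GSHG0018185, chromosome 2, 179296141 to 179315967) encode the related partners of DICER1. TARBP2 was at 2293, 2588 and 2381 normalised reads in DMSO and at 2807, 3049 and 2744 with YK-4-279. All 3 drug libraries were higher than all vehicle libraries, by 18.5% in the mean, but the change of 0.24 ± 0.14 had an adjusted p of 0.269 with the spread shared by all groups. That spread is wide in the transfected cells, where TARBP2 was at 2332, 1895 and 2518 in scrambled and 2555, 2048 and 3224 in siDHX9 libraries. With only the 6 drug and vehicle libraries the adjusted p was 0.0142, in a fit that called 30% of all entries. PRKRA was level throughout, from 1357 to 1561 over all 12 libraries, a ratio of 1.15. Its changes were −0.01 ± 0.08 with the drug (95% interval −0.17 to 0.15) and 0.05 ± 0.08 with the knockdown (−0.12 to 0.21). PRKRA overlaps the uncharacterised LOC101927027 over 8829 bases, at a mean of 192 normalised reads against 1441.

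The Argonautes load the mature strand. AGO2 is the one of the 4 best known for cutting a target, and AGO1, AGO3 and AGO4 lie side by side on chromosome 1. The sum of their normalised reads, not divided by length, was 1178 ± 32.1 in DMSO, 1399 ± 67.9 with YK-4-279, 1472 ± 196 in scrambled and 1294 ± 78.1 in siDHX9 libraries. The drug and vehicle sums did not overlap (1326 to 1461 against 1145 to 1209), and the scrambled sums (1302 to 1687) also lay above all DMSO sums. How often sums of other entries would not overlap was not counted. In the drug comparison all 4 had positive changes and in the knockdown comparison all 4 had negative ones, none of them called, and after removal of the length trend described above AGO2, AGO3 and AGO4 turned to 0.01, 0.00 and 0.08 in the latter.

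AGO3 (GSHG0000383, chromosome 1, 36396319 to 36522062) had close replicates in the drug comparison. It was at 492, 479 and 508 normalised reads in DMSO and at 614, 604 and 599 with YK-4-279, a mean 22.8% higher without overlap. The log2 change was 0.30 ± 0.12 (95% interval 0.05 to 0.55, adjusted p = 0.105). It was under the threshold with the 6 libraries of the comparison (0.0193), without siDHX9 2 (0.0478) and after the length trend was removed (change 0.46, adjusted p = 0.0104). In transfected cells AGO3 was at 544, 578 and 519 in scrambled and 419, 585 and 487 in siDHX9 libraries, which overlap (−0.15 ± 0.12). The drug effect minus the knockdown effect was 0.45 ± 0.16 (adjusted p = 0.0998), and was called without siDHX9 2 (0.024), the library with the highest AGO3 of its group.

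AGO2 (GSHG0029898, chromosome 8, 141530250 to 141645645) was at 375, 403 and 340.28 normalised reads in DMSO and at 431, 413 and 420.09 with YK-4-279. These groups did not overlap, yet the change of 0.18 ± 0.13 (95% interval −0.11 to 0.47) had an adjusted p of 0.395. In transfected cells it was at 485, 529 and 426 in scrambled and 446, 356 and 499 in siDHX9 libraries, with overlap. Scrambled minus DMSO was 0.36 ± 0.13 (adjusted p = 0.0715), and was called without scrambled 3 (0.0407), siDHX9 2 (0.0334) or siDHX9 3 (0.0466).

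AGO1 (GSHG0000381, chromosome 1, 36335409 to 36389899) had the widest range, its highest value being 2.14 times its lowest. It was at 214, 199 and 178 normalised reads in DMSO, 244, 179 and 275 with YK-4-279, 256, 382 and 250.39 in scrambled and 214, 209 and 251 in siDHX9 libraries. Drug and vehicle overlapped, as did siDHX9 and scrambled through a single pair of nearly equal values, and the changes were 0.22 ± 0.19 and −0.37 ± 0.19 (95% interval −0.78 to 0.03). All scrambled libraries lay above all DMSO libraries (log2 0.56 ± 0.19, adjusted p = 0.0524), and this passed the threshold with a minimum mean of 50 (0.0499), in edgeR (0.046) and DESeq2 (0.023), and without YK-4-279 2 (0.0392), scrambled 3 (0.0365), siDHX9 2 (0.0413) or siDHX9 3 (0.0473). Without scrambled 2, its highest library, the change between the controls was 0.36. AGO4 (GSHG0000380, chromosome 1, 36273225 to 36323491), counted with 92 to 214 reads, ranged from 100.3 to 198 normalised reads over the 12 libraries with overlap in every comparison. Its changes were 0.25 ± 0.23 with the drug (95% interval −0.24 to 0.75) and −0.08 ± 0.23 with the knockdown (−0.57 to 0.41).

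Pairs of members varied together or against each other. As a description over the 12 libraries, which share depth and length balance, Pearson's r of log2 values was highest for AGO1 with AGO2 (0.76) and DROSHA with XPO5 (0.71), and lowest for DGCR8 with TARBP2 (−0.77). Among 10931 named entries with a mean of at least 100, those most like XPO5 over the 12 libraries were IPO9, an importin (r = 0.97), PRPS1, an enzyme of nucleotide synthesis (r = 0.97), and SEMA3A, a secreted guidance protein (r = 0.96).

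The genes around the pathway moved in small numbers. Of 18 nuclear partners, such as the RNA-binding proteins that guide DROSHA, 1 rose and 2 fell with YK-4-279, 16.7% beside 13.8% of all entries, and the list's median was −0.01. KHSRP, which binds some hairpins and aids their processing, rose (log2 0.44 ± 0.07, adjusted p = 0.00183), and SRSF3, a splicing factor that binds beside primary hairpins, fell (−0.36 ± 0.09), as did METTL3, which methylates RNA (−0.36 ± 0.08). With siDHX9 1 fell, DHX9 itself (−0.66 ± 0.07), and 1 rose, SRRT (ARS2), a cap-binding partner (0.31 ± 0.10), whose adjusted p of 0.0499 was over the threshold in 14 of 23 other fits. These 2 are 11.1% of the nuclear partners, beside 16.7% of all entries. SRRT was also called lower in scrambled (8569, 10228 and 10278) than in DMSO (12773, 12408 and 12702), by −0.39. Its siDHX9 libraries were at 11653, 10382 and 14281. HNRNPA1 and HNRNPA2B1, the partners with the highest counts, were at −0.01 and −0.00 with the drug. Of 19 tested partners of export, tailing, the Dicer step and loading, 1 rose with the drug, FKBP4, a chaperone of the HSP90 system (0.31 ± 0.08). That is 5.26% of the list, beside 13.8% of all entries. With siDHX9 limma called 0 of the 19, edgeR called 1 and DESeq2 called 3, all lower, beside 16.7%, 17.7% and 22.5% of all entries. In limma 9 of the 19 had an unadjusted p under 0.05, and the share of all entries at that level was not counted. HSPA8 and HSP90AA1, the loading chaperones with the highest counts, were at 0.34 with siDHX9 (adjusted p = 0.0558) and −0.20 (adjusted p = 0.0855). Without 1 library the call ended in 5 of 12 fits for SRSF3, 3 for METTL3 and 6 for FKBP4, at adjusted p values of at most 0.0985.

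Among the effectors that act after Argonaute, 34 genes of silencing and messenger RNA decay were tested. With YK-4-279, 4 rose and 1 fell (median 0.06), which is 14.7% of the list beside 13.8% of all entries. With siDHX9, 5 fell and none rose (median −0.18), 14.7% of the list beside 16.7% of all entries called and 7.97% called lower. With the drug the fragile X relative FXR2 rose from 1616 ± 54.1 to 2429 ± 77.0 normalised reads (0.59 ± 0.09), the deadenylase subunit CNOT3 from 3250.24 ± 127 to 4753 ± 251 (0.55 ± 0.11) and the poly(A)-binding protein PABPC1 by 0.34 ± 0.06. TNRC6B, a GW182 scaffold that binds Argonaute, rose by 0.36 ± 0.11 (adjusted p = 0.0459), which was over the threshold in 12 of 23 other fits, TMM and edgeR among them. The exonuclease XRN1 fell with the drug (−0.51 ± 0.15) and with siDHX9 (−0.56 ± 0.15), a call that ended in both after the length trend was removed (adjusted p = 0.0692 and 0.0773). Also lower with siDHX9 were AJUBA, a LIM protein of processing bodies (473 ± 132 in scrambled, 273 ± 44.7 in siDHX9), FMR1 (−0.58 ± 0.15), and the deadenylases CNOT8 (−0.45 ± 0.11) and CNOT7 (−0.39 ± 0.08). With only the 6 libraries of the knockdown comparison, a fit that called 3.46% of all entries, none of these 5 calls remained: the adjusted p was 0.0743 for AJUBA, 0.0799 for CNOT7, 0.0836 for FMR1, 0.108 for XRN1 and 0.108 for CNOT8. CNOT7 was at an adjusted p of 0.0935 after the length trend was removed, and without 1 library the knockdown call ended in 3 of 12 fits each for FMR1 and CNOT8 and in 2 for XRN1, whose drug call ended in 7. The scrambled controls had moved too, beside the length balance given above: 7 genes of this list were higher and 1 lower in scrambled than in DMSO (23.5% beside 18.9% of all entries). Among the higher were AJUBA (1.10 ± 0.18), CNOT8 (0.51 ± 0.11) and FMR1 (0.47 ± 0.15), each also lower with siDHX9. The others were DCP1A (1.25, a call lost in 9 of 22 other fits), TNRC6B (0.50), FXR1 (0.31) and FXR2 (0.32).

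Host genes of microRNAs changed in both directions, 2 up and 2 down with YK-4-279 and 2 up and 4 down with siDHX9, of 25 tested. These are 16% and 24% of the list, beside 13.8% and 16.7% of all entries. The 2 up with siDHX9 include H19, described below, which met the required mean only through its DMSO and drug libraries. Of the 6 calls with siDHX9, that of MIRLET7BHG was the 1 still made with only the 6 libraries of the comparison (0.049). MIR17HG was at 674, 698 and 716.5 normalised reads in DMSO and at 366, 420.27 and 457 with the drug, a change of −40.6% without overlap (log2 −0.75 ± 0.20, adjusted p = 0.0256). In scrambled libraries it was at 481, 345 and 624 and in siDHX9 at 559, 459 and 337, which overlap. The drug call ended without any 1 of the DMSO libraries, YK-4-279 1 or YK-4-279 2, at adjusted p values of 0.068 to 0.0932. MCM7, whose intron holds the related miR-106b-25 cluster, was at −0.03 ± 0.10.

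DNM3OS fell in both comparisons. It was at 521, 565 and 549.58 in DMSO and 373, 332 and 364 with the drug (log2 −0.61 ± 0.13, adjusted p = 0.0068), and at 698, 515 and 626 in scrambled and 430.38, 435 and 354 in siDHX9 libraries (−0.59 ± 0.13, adjusted p = 0.0084, or 0.0727 with only those 6 libraries). Neither pair of groups overlapped. MIRLET7BHG, in an entry shared with PRR34-AS1, rose with siDHX9, from 1225, 1103 and 1318 to 1689, 1638 and 1850.29 (0.51 ± 0.10, adjusted p = 0.00409), and was at 1549, 1535 and 1410.39 with the drug against 1462, 1732 and 1502 in DMSO. It was also lower in scrambled than in DMSO (−0.36 ± 0.10), so that the siDHX9 libraries lay nearer to DMSO. The other called hosts included SREBF2, which holds miR-33a, higher with the drug (0.35 ± 0.09) and lower with siDHX9 (−0.31 ± 0.09), and SMC4, which holds miR-15b and miR-16-2, lower with siDHX9 (−0.86 ± 0.25). SREBF2 was also higher in scrambled (8063, 8597 and 6642) than in DMSO (4740, 4855 and 4933). Its siDHX9 libraries (6377, 6093 and 6280) still lay above DMSO. Without 1 library the SREBF2 calls ended in 6 and 8 of 12 fits and the SMC4 call in 4. H19, the host of miR-675, was counted as higher with siDHX9 at only 13.1 ± 2.46 against 5.96 ± 1.96 normalised reads, and that call was lost in 18 of 21 other fits. It was at 44.8, 29.8 and 43.7 in DMSO and 47.6, 64.4 and 52.4 with the drug. H19 was thus called lower in scrambled than in DMSO, and its siDHX9 libraries stayed below all DMSO libraries. PIWIL2, of the germline branch of the Argonaute family, fell with siDHX9 (−0.51 ± 0.14, adjusted p = 0.0271, lost in 4 of 23 other fits), and the other PIWI gene with enough reads, PIWIL4, was not called in either comparison.

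**Figure D5:**
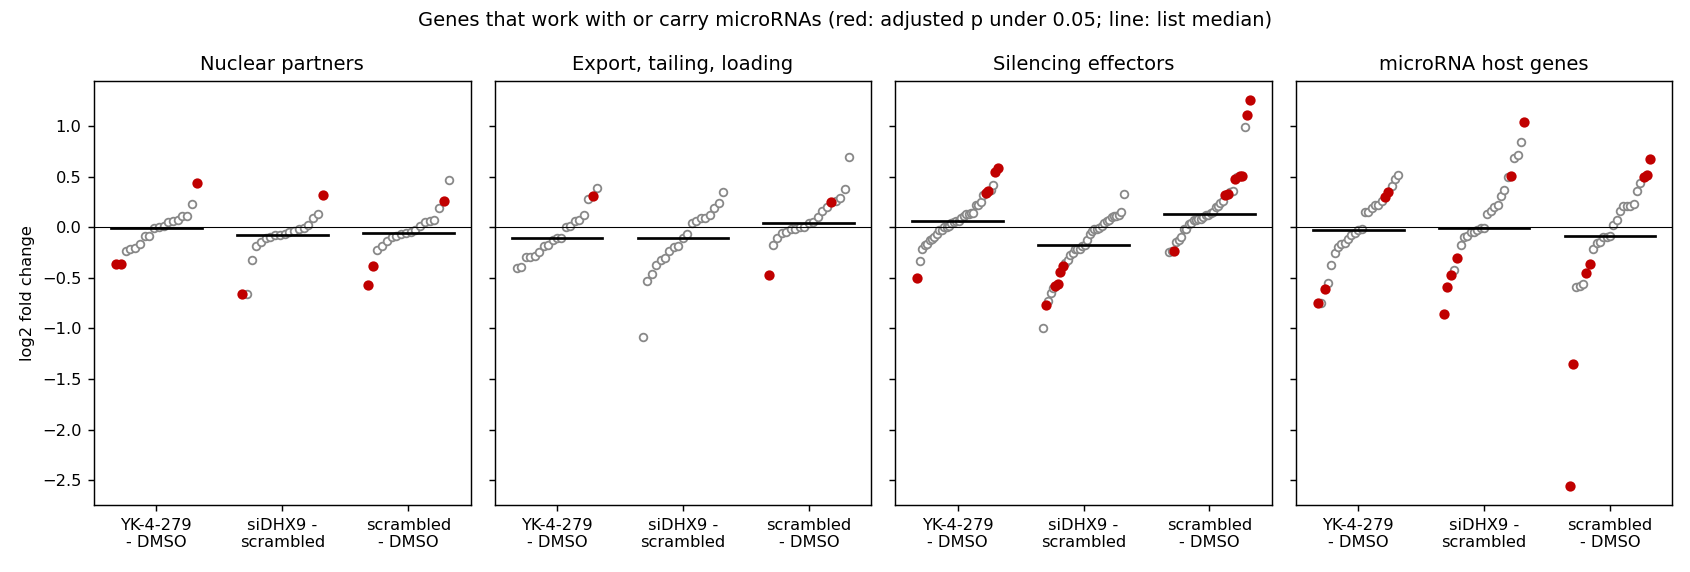
Change on the log2 scale (y) of every tested gene in 4 lists, for 3 comparisons (x), with called genes in red and the list median as a line. The effector list lies below 0 in siDHX9 minus scrambled (median −0.18) and above it in scrambled minus DMSO (median 0.13), and most genes in each list are uncalled.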

How the data were processed

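The deposited table gives 1 signal per entry and library, a DESeq-normalised read count per the file headers. The submitters' processing notes name hg19, DESeq, STAR 2.4.0, SAMtools, Picard and FastQC. The sources used here name no counter and do not say how strand was treated. Low values of each column were whole multiples of 1 step within 0.1, in 100% of low values, and the reads recovered from these steps gave the depths and were used for edgeR and DESeq2.

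Named entries with a mean of at least 10 were taken to log2 of the value plus 1 and modelled by group over all 12 libraries (limma 3.58.1 in R 4.3.3, mean-variance trend, 8 residual degrees of freedom). A gene was called at a Benjamini-Hochberg adjusted p under 0.05. Fold changes are on that log2 scale, which understates those of low genes. Alternatives were added values of 0.5 and 10, a minimum mean of 50 or none, quantile normalisation, TMM and edgeR's quasi-likelihood test (edgeR 4.0.16), DESeq2 1.42.0, the 6 libraries of a comparison alone, a block for the replicate number and each library left out. Removal of a lowess trend on transcript length, within each library, was added after the data were seen. Lengths were those of the GENCODE transcript with the longest coding sequence, for 12149 genes.

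The members and the gene lists were chosen with earlier results of these data known, and 1 listed gene is not reported here. Besides the 10 members and DHX9, up to 4 called genes with the largest changes were to be named per list and comparison. Up to 2 uncalled genes with the highest means were to be added. The text follows this plan in part: between the controls it mostly names genes already given for the drug or the knockdown. Limma and edgeR were tried on simulated reads for the drug comparison alone, with a single fixed spread and changes only in well-counted genes. The other comparisons and alternatives were not simulated. Reads are not independent molecules, so depth bounds counting error only.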

Additional observations from a re-analysis of the deposited data

Results flagged for a closer look

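None of the 10 microRNA pathway genes differed between the drug effect and the knockdown effect at an adjusted p of 0.05 in limma. Among the genes around the pathway the difference (drug effect minus knockdown effect, log2) passed for 11, where 9.69% of all entries passed. By list it passed for 2 of 18 nuclear partners (11.1%), 0 of 19 export, tailing, Dicer-step and loading partners and 4 of 34 effectors (11.8%). It passed for 4 of 25 host genes (16%), 0 of 2 PIWI genes and DICER1-AS1, which is outside these lists. The difference was 0.45 for the DHX9 entry, 0.48 for KHSRP, 0.61 for FXR2, 0.65 for SREBF2 and 1.08 for AJUBA, and each of these was called in all alternatives that were run. The DHX9 entry was at 30613, 29420 and 29959 normalised reads with the drug, below the DMSO values of 36422, 34511 and 33239. Drug libraries lay wholly lower in 20.4% of all entries. This DHX9 change of −0.21 was not called in the main fit. It was called without scrambled 3 (adjusted p = 0.0462), siDHX9 2 (0.0409) or siDHX9 3 (0.0323). SREBF2, AJUBA and FXR2 were also higher in scrambled than in DMSO libraries, as given above. For CNOT3 the difference was 0.54, for CNOT7 0.50, for R3HDM1 0.62 and for DICER1-AS1, the antisense neighbour of DICER1, 1.08. It was negative for MIRLET7BHG (−0.57) and SREBF1 (−0.46), and SREBF1 was also higher in scrambled than in DMSO libraries (0.49). The calls of these 6 ended in 2 of 21 (MIRLET7BHG) to 11 of 22 (SREBF1) alternatives, mostly fits without 1 library.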

How the results depend on the processing

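With the drug, the number of the 10 genes called was 2 with TMM, 2 in edgeR, 2 in DESeq2 (DGCR8 and XPO5 each time), 2 after the length trend was removed (DGCR8 and AGO3), 4 with its 6 libraries alone (DGCR8, XPO5, AGO3 and TARBP2) and 0 to 2 without 1 library. These fits called 14% (TMM), 14% (edgeR), 17.8% (DESeq2), 15.4% (length) and 30% (6 libraries) of all entries. For the knockdown it was 0 with its 6 libraries alone, 0 after the length trend was removed and 0 to 2 without 1 library, TARBP2 being added without siDHX9 2, and the first 2 fits called 3.46% and 16.7% of all entries. For the difference it was 0 to 1 without 1 library. Between the controls it was 2 with a minimum mean of 50, 2 in edgeR and 2 in DESeq2 (XPO5 and AGO1), 0 after the length trend was removed, and 0 to 3 without 1 library, where the first 4 fits called 21.6%, 19.5%, 23.8% and 20.7% of all entries. The replicate block left these counts at 0 for the drug, 1 for the knockdown, 0 for the difference and 1 between the controls. Same-numbered libraries correlated from −0.25 to 0.12 in their deviations over 18 pairs, and 3 of 12 libraries matched their own number best. These values show no pairing by number, but groups of 3 libraries are too small to exclude it.

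Signs turned only for changes that were not called. With quantile normalisation DICER1 was −0.077 between the controls. After the length trend was removed, siDHX9 minus scrambled was 0.13 for DROSHA, 0.051 for DGCR8, 0.011 for AGO2, 0.00387 for AGO3, 0.075 for AGO4 and −0.045 for PRKRA. Likewise, the difference was −0.048 for XPO5, and scrambled minus DMSO was −0.081 for DROSHA and −0.079 for DICER1. Without 1 library, siDHX9 minus scrambled ranged from −0.30 to 0.14 for AGO4, −0.19 to 0.059 for DGCR8 and −0.037 to 0.047 for DROSHA. Scrambled minus DMSO ranged from −0.15 to 0.0749 for DGCR8, −0.13 to 0.11 for DICER1, −0.000716 to 0.0749 for DROSHA and −0.20 to 0.00324 for TARBP2. PRKRA with the drug ranged from −0.0398 to 0.034 and the difference for TARBP2 from −0.12 to 0.21. The cause of these changes was not tested, apart from the smaller number of libraries in such fits. Of 63 called results of other genes, none changed sign, and 25 stayed called in each fit without 1 library.

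AGO4, DICER1 and AGO1, the 3 members with the fewest reads, had the widest intervals, and whether depth or the spread between libraries set these was not tested.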
